A study of Mus musculus with 12 samples.

Results

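The amino acid transporter families of the mouse kidney were followed here as every measured gene whose symbol begins with Slc1a, Slc3a, Slc6a, Slc7a, Slc36a or Slc38a and a digit. This rule took 61 of 19938 genes by symbol alone, but the families were chosen with earlier results of these data known. The members were 59 transporter genes, with 7 from Slc1a, 2 from Slc3a, 20 from Slc6a, 15 from Slc7a, 4 from Slc36a and 11 from Slc38a. The other members, Slc6a19os and Slc7a6os, are opposite-strand genes that encode no transporter. RNA from the kidneys of female mice was hybridised to 12 whole-transcript arrays, 4 in each of 3 groups. One group was wild-type mice (WT, strain label C57BL/6) given 500 ng recombinant FGF23 per g body weight into the peritoneum. The second was WT mice of the same strain label given 100 µl saline vehicle, and the third was KL null mice (strain label 129/SvEv/C57BL/6) given vehicle. All mice had eaten standard diet for 5 to 8 weeks and were killed 1 hour after the injection. The KL null mice lack klotho, the co-receptor through which the bone hormone FGF23 acts on the kidney. Genotype and strain label cannot be told apart in these arrays, although the protocol describes the wild-type mice as littermates.

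The proximal tubule takes nearly all filtered amino acids back from the urine. Apical carriers such as Slc6a19 for neutral, Slc1a1 for acidic and the Slc3a1-Slc7a9 pair for cationic amino acids and cystine bring them into the cell, and basolateral exchangers such as Slc3a2-Slc7a8 pass them on to the blood. The SLC3 proteins are heavy chains that carry SLC7 light chains to the membrane. Members of SLC6 also take up osmolytes such as taurine and betaine, and the SLC36 and SLC38 families include lysosomal carriers and glutamine carriers.

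Promoter sequence is shown for the 2 heavy chains and for Slc7a8, a light chain of Slc3a2, because all 3 mRNAs were lower in KL null kidney. RefSeq promoters of GRCm38.p6 matched 45 of the 61 members, and each window is the 250 bases before the annotated start, 5′ to 3′ on the strand of the gene. The windows are chr17:85028097-85028346 on the plus strand for Slc3a1, chr19:8713898-8714147 on the minus strand for Slc3a2 and chr14:54781887-54782136 on the minus strand for Slc7a8. Capitals mark the searched motifs.
Slc3a1: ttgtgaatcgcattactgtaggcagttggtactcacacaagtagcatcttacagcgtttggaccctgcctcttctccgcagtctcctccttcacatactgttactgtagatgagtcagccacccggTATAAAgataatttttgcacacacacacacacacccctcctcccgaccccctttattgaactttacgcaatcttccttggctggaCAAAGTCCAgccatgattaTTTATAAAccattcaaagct
Slc3a2: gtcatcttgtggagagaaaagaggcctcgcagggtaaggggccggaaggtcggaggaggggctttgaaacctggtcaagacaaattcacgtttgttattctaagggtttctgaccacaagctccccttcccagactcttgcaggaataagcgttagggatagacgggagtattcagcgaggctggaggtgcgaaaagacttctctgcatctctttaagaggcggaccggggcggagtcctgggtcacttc
Slc7a8: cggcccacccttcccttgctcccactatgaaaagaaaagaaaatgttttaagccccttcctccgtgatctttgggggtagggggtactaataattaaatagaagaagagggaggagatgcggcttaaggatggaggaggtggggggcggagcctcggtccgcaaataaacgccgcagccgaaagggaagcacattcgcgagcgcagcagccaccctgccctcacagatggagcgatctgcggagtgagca
The capitals in Slc3a1 are the HNF4 element CAAAGTCCA, 39 to 31 bases before the start, and 3 matches to TATAAA, of which the last 2 overlap on opposite strands. Both strands were searched. The HNF4 letters stood in 0.384% of 32851 promoters of this length, and Slc3a1 was the 1 member with them. TATAAA stood in 12.4% of promoters and in 5 members. The HNF1 half-site GTTAAT stood in 6.43% of promoters and in 6 members, among them Slc36a1, and the full HNF1 palindrome in 0.00913% and in 0 members. The amino acid response element TGATGNAA stood in 3.45% of promoters and in 3 members, Slc6a21, Slc7a11 and Slc7a7. The windows of Slc3a2 and Slc7a8 held none of these letters.

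Values are log2 RMA signals, on which a difference of 1 is a factor of 2, and they do not rank different genes by level. The standard deviation of all values on an array ran from 2.17 to 2.28 and was lowest on FGF23 replicates 1 and 2. The Kl probe set read 10.45 to 10.74 in vehicle, 10.44 to 10.61 in FGF23 and 9.66 to 9.80 in KL null kidney, a fall of 0.89 (adjusted p = 1.75e-05). Whether its probes lie in the altered sequence is not given in the sources used here. Xist was between 11.06 and 11.41 on every array, and the mean of 3 Y-linked genes was between 3.09 and 3.33. In whole kidney, fewer cells of a type and less RNA per cell cannot be told apart. The labels do not say that replicates were separate animals, so the spread behind the p-values may be technical.

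In KL null kidney, amino acid transporter expression was changed in both directions. The cystine and acidic amino acid carrier Slc7a13 rose 11.5-fold, the glutamine carrier Slc38a3 1.84-fold, the taurine carrier Slc6a6 1.46-fold, and the lysosome-linked Slc36a4 and Slc38a9 1.42-fold and 1.37-fold. Slc7a8 and Slc7a12 fell 1.98-fold and 1.97-fold, the apical carrier Slc6a18 fell 1.56-fold, and both heavy chains fell by less. With limma and Benjamini-Hochberg adjustment over all genes, 14 of the 61 members were called at an adjusted p below 0.05, or 23.0%, against 8.01% of all genes. Of these, 5 were higher, where 3.58% of all genes were, and 9 were lower, where 4.44% were. Over all members, 25 had an unadjusted p below 0.05, or 41.0%, against 21.3% of all genes. The median log2 difference was 0.09 over the members and 0.03 over all genes, and 62.3% of the members and 56.0% of all genes were above 0. Without WT vehicle replicate 1 the count of called members was 7, without WT vehicle replicate 3 it was 9, and without KL null replicate 2 or 3 it was 8 each. The share of all genes called was lower as well in these fits, at 4.17%, 4.15%, 5.03% and 4.29%.

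The 4 KL null arrays did not overlap the 4 vehicle arrays for 16 members, or 26.2%, against 13.8% of all genes, with 7 above (6.35% of all genes) and 9 below (7.44%). They included 13 of the 14 called members, the exception being Slc6a20b, and the uncalled Slc7a5, Slc7a6 and Slc7a9. For 8 members, or 13.1% against 8.13% of all genes, the KL null arrays also lay outside all 8 wild-type arrays. Slc7a13, Slc36a4, Slc38a3 and Slc38a9 were above them, as 3.78% of all genes were, and Slc6a18, Slc3a1, Slc36a1 and Slc38a10 were below, as 4.35% were.

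**Figure D1:**
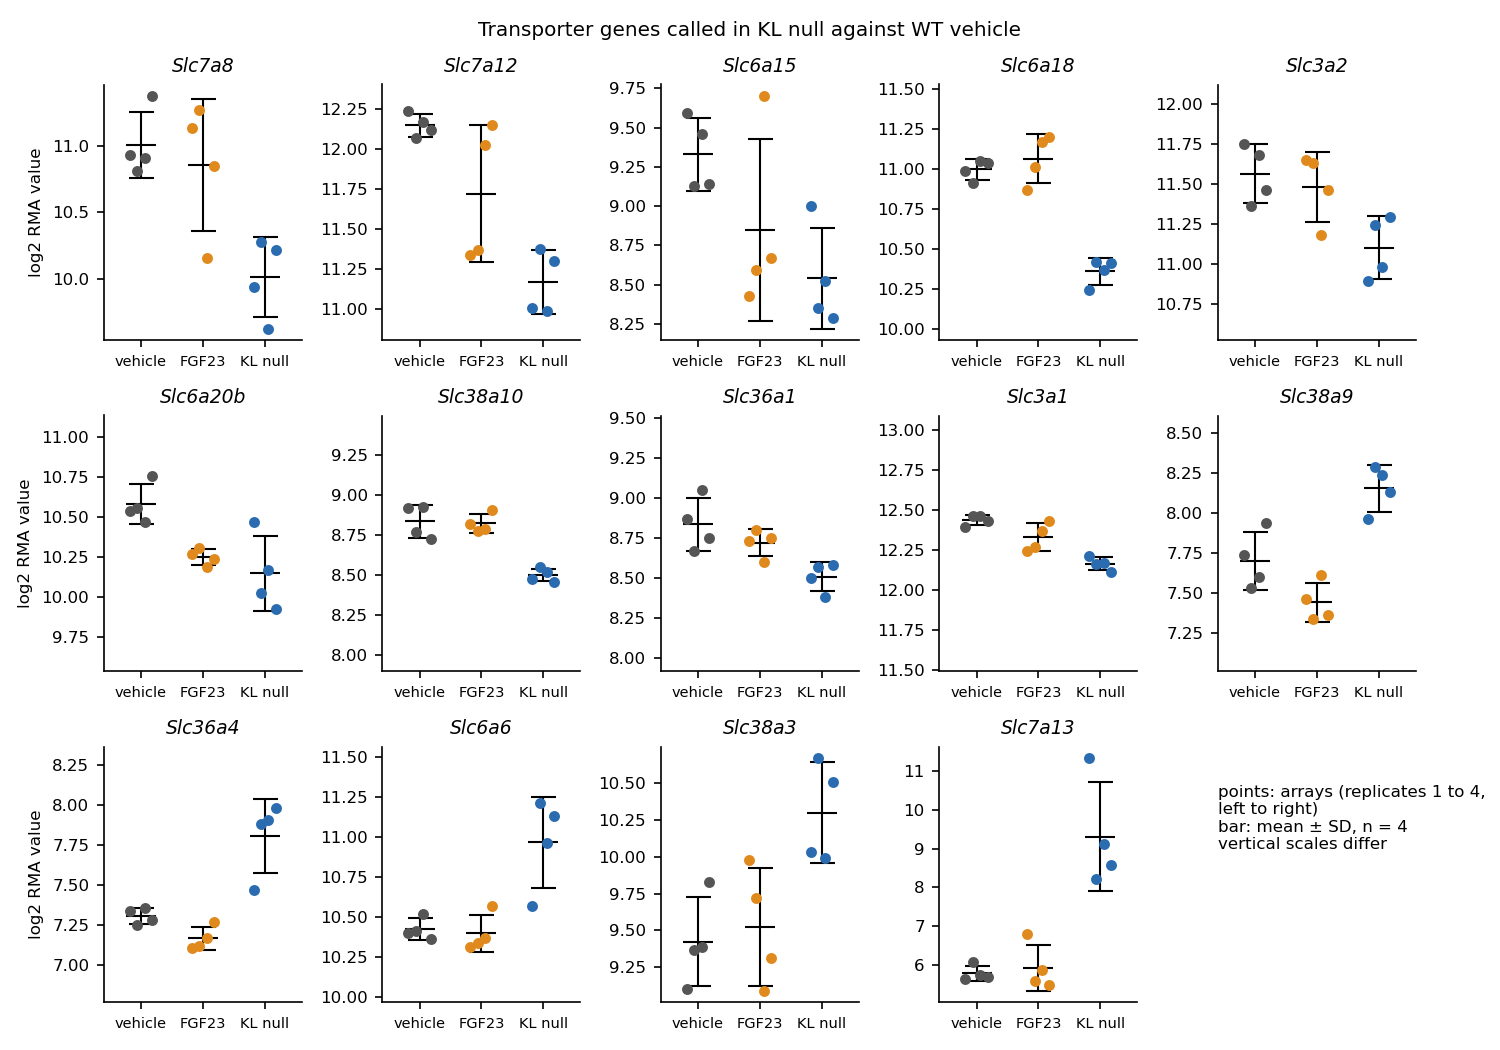
Log2 RMA value on each of the 12 arrays for the 14 members called in KL null against WT vehicle, one panel per gene, with each axis fitted to its gene, 4 points per group and bars for the mean ± SD. The KL null values of Slc7a13 run from 8.23 to 11.33, above all wild-type arrays, and those of Slc6a18 run from 10.24 to 10.42, below them.

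Of the 9 members for apical uptake in the proximal tubule, 1 rose and 3 fell. For this and the role groups below, 3.58% of all genes were called higher and 4.44% lower. An unadjusted p below 0.05 was reached by 21.3% of all genes. Slc7a13 encodes a light chain that pairs with the Slc3a1 product in the straight part of the tubule. It read 5.65, 6.07, 5.74 and 5.69 in vehicle replicates 1 to 4, 6.79, 5.59, 5.88 and 5.48 after FGF23, and 11.33, 8.23, 9.11 and 8.57 in KL null kidney. Every KL null array was well above all wild-type arrays, and replicate 1 was the highest by far. The difference was 3.52 (95% confidence interval 2.48 to 4.56, adjusted p = 0.000506), and it stayed between 2.85 and 3.88 in all 22 alternatives.

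Slc6a18, an apical carrier of glycine and other neutral amino acids, read 10.99, 10.91, 11.05 and 11.04 in vehicle, 10.87, 11.01, 11.17 and 11.20 after FGF23, and 10.24, 10.42, 10.37 and 10.41 in KL null kidney. All 8 wild-type arrays lay above the KL null arrays, which differed little among themselves. The difference was -0.64 (-0.82 to -0.45, adjusted p = 0.000479). Its neighbour on chromosome 13, Slc6a19, the main apical carrier of neutral amino acids, differed by 0.20 (adjusted p = 0.481). Within arrays, the change of Slc6a18 was lower than that of Slc6a19 by a difference of -0.84, which is a description, since this pair and those of Slc6a20b with Slc6a20a and Slc7a12 with Slc7a13 were chosen after their values had been seen.

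Slc6a20b and Slc6a20a are neighbouring mouse paralogs on chromosome 9, and Slc6a20a carries proline and other imino acids. Slc6a20b read 10.54, 10.56, 10.47 and 10.76 in vehicle, 10.27, 10.31, 10.19 and 10.24 after FGF23, and 10.47, 10.03, 10.17 and 9.93 in KL null kidney. KL null replicate 1 equalled the lowest vehicle array and the other 3 lay below it, with a difference of -0.43 (-0.66 to -0.20, adjusted p = 0.0224). Slc6a20a read 7.90, 8.32, 8.55 and 7.89 in vehicle, 8.16, 8.03, 8.23 and 8.32 after FGF23, and 8.23, 8.77, 8.75 and 8.73 in KL null kidney. Here 3 KL null arrays were above the vehicle range and replicate 1 was inside it, and the difference of 0.46 was not called (adjusted p = 0.0821). Their changes differed by -0.89. Whether the probes tell the paralogs apart was not tested.

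Slc3a1, the heavy chain known as rBAT whose loss causes cystinuria, read 12.39, 12.46, 12.46 and 12.43 in vehicle, 12.24, 12.27, 12.37 and 12.43 after FGF23, and 12.21, 12.16, 12.17 and 12.11 in KL null kidney. All KL null values were just below the others, and the difference was -0.27 (-0.43 to -0.12, adjusted p = 0.0313). Slc7a9, its light chain for cystine and cationic amino acids, read 10.95, 11.01, 11.06 and 11.18 in vehicle, 10.93, 10.92, 11.01 and 10.97 after FGF23, and 10.92, 10.89, 10.91 and 10.66 in KL null kidney. For Slc7a9 the KL null and vehicle arrays did not overlap, but its difference of -0.21 was not called (adjusted p = 0.158). Slc1a1, the acidic amino acid carrier, differed by -0.17 (adjusted p = 0.453) and Slc36a2, a proton-coupled glycine and proline carrier, by 0.06 (adjusted p = 0.798).

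The apical calls below 1.5-fold were lost in some fits that left out 1 array. Slc3a1 was not called without any 1 of the 4 WT vehicle arrays (adjusted p = 0.0550 to 0.0876), without KL null replicate 2, 3 or 4 (0.0700 to 0.0776), or after further quantile normalization (0.0651). Slc6a20b was not called without WT vehicle replicate 1 (0.0523) or 4 (0.0600), or without KL null replicate 2 (0.0700), 3 (0.0565) or 4 (0.0657). Slc6a20a passed without WT vehicle replicate 3 (0.0368) or KL null replicate 1 (0.0197), and with array spread as a covariate (0.0425), array quality weights (0.0225) or genes at or above the median gene mean (0.04998).

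Of the 6 members grouped under basolateral exchange, 0 rose and 3 fell, where 3.58% of all genes rose and 4.44% fell. Slc7a12 was placed in this group by a role list, and its heavy chain and membrane side were not tested here. Slc7a8, the light chain LAT2, which exchanges neutral amino acids, read 10.93, 10.81, 10.91 and 11.37 in vehicle, 11.13, 11.27, 10.16 and 10.85 after FGF23, and 9.94, 10.28, 9.63 and 10.22 in KL null kidney. All KL null values lay below vehicle, and FGF23 replicate 3 fell inside their range. The difference was -0.99 (-1.43 to -0.54, adjusted p = 0.00937). Slc3a2, the heavy chain 4F2hc of Slc7a8, read 11.75, 11.36, 11.68 and 11.46 in vehicle, 11.65, 11.63, 11.18 and 11.46 after FGF23, and 10.89, 11.24, 10.98 and 11.29 in KL null kidney. A narrow gap parted the lower KL null arrays from vehicle, and the difference was -0.46 (-0.73 to -0.19, adjusted p = 0.0365). It was not called without WT vehicle replicate 1 (adjusted p = 0.120) or 3 (0.113), or without KL null replicate 1 (0.0852) or 3 (0.111). Slc7a7, the light chain that exports cationic amino acids and is mutated in lysinuric protein intolerance, differed by -0.22 (adjusted p = 0.367).

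Slc7a12, a carrier of small neutral amino acids, read 12.24, 12.07, 12.17 and 12.12 in vehicle, 11.34, 11.37, 12.03 and 12.15 after FGF23, and 11.01, 11.38, 10.99 and 11.30 in KL null kidney. The KL null arrays were below all vehicle arrays, and FGF23 replicates 1 and 2 were within the KL null range. The difference between KL null and vehicle was -0.98 (-1.33 to -0.63, adjusted p = 0.00211). Slc7a12 fell while Slc7a13 rose, and within arrays their changes differed by -4.50. In mouse kidney Slc7a12 is known as higher in females and Slc7a13 as higher in males. Of 10 other genes known as higher in male kidney, 4 were higher in KL null kidney (Cyp4a12b by 1.81, Cyp4a12a by 1.36, Cyp2e1 by 1.33 and Cyp7b1 by 0.48) and 2 were lower (Kap at -1.50 and Odc1 at -1.14). Of 3 measured genes known as higher in female kidney, Akr1c18 at -4.69 and Slc22a7 at -4.61 were lower and Cyp4a14 at 0.66 was higher. By the same rule, 3.58% of the 19938 genes rose and 4.44% fell. A list of 3 genes is too short to be judged against these shares. The mean level of the male list was 7.26 to 7.50 in vehicle and 7.51 to 7.71 in KL null kidney, and that of the female list 11.02 to 11.37 and 7.91 to 8.49. Their part in the Slc7a12 and Slc7a13 differences was not tested.

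**Figure D2:**
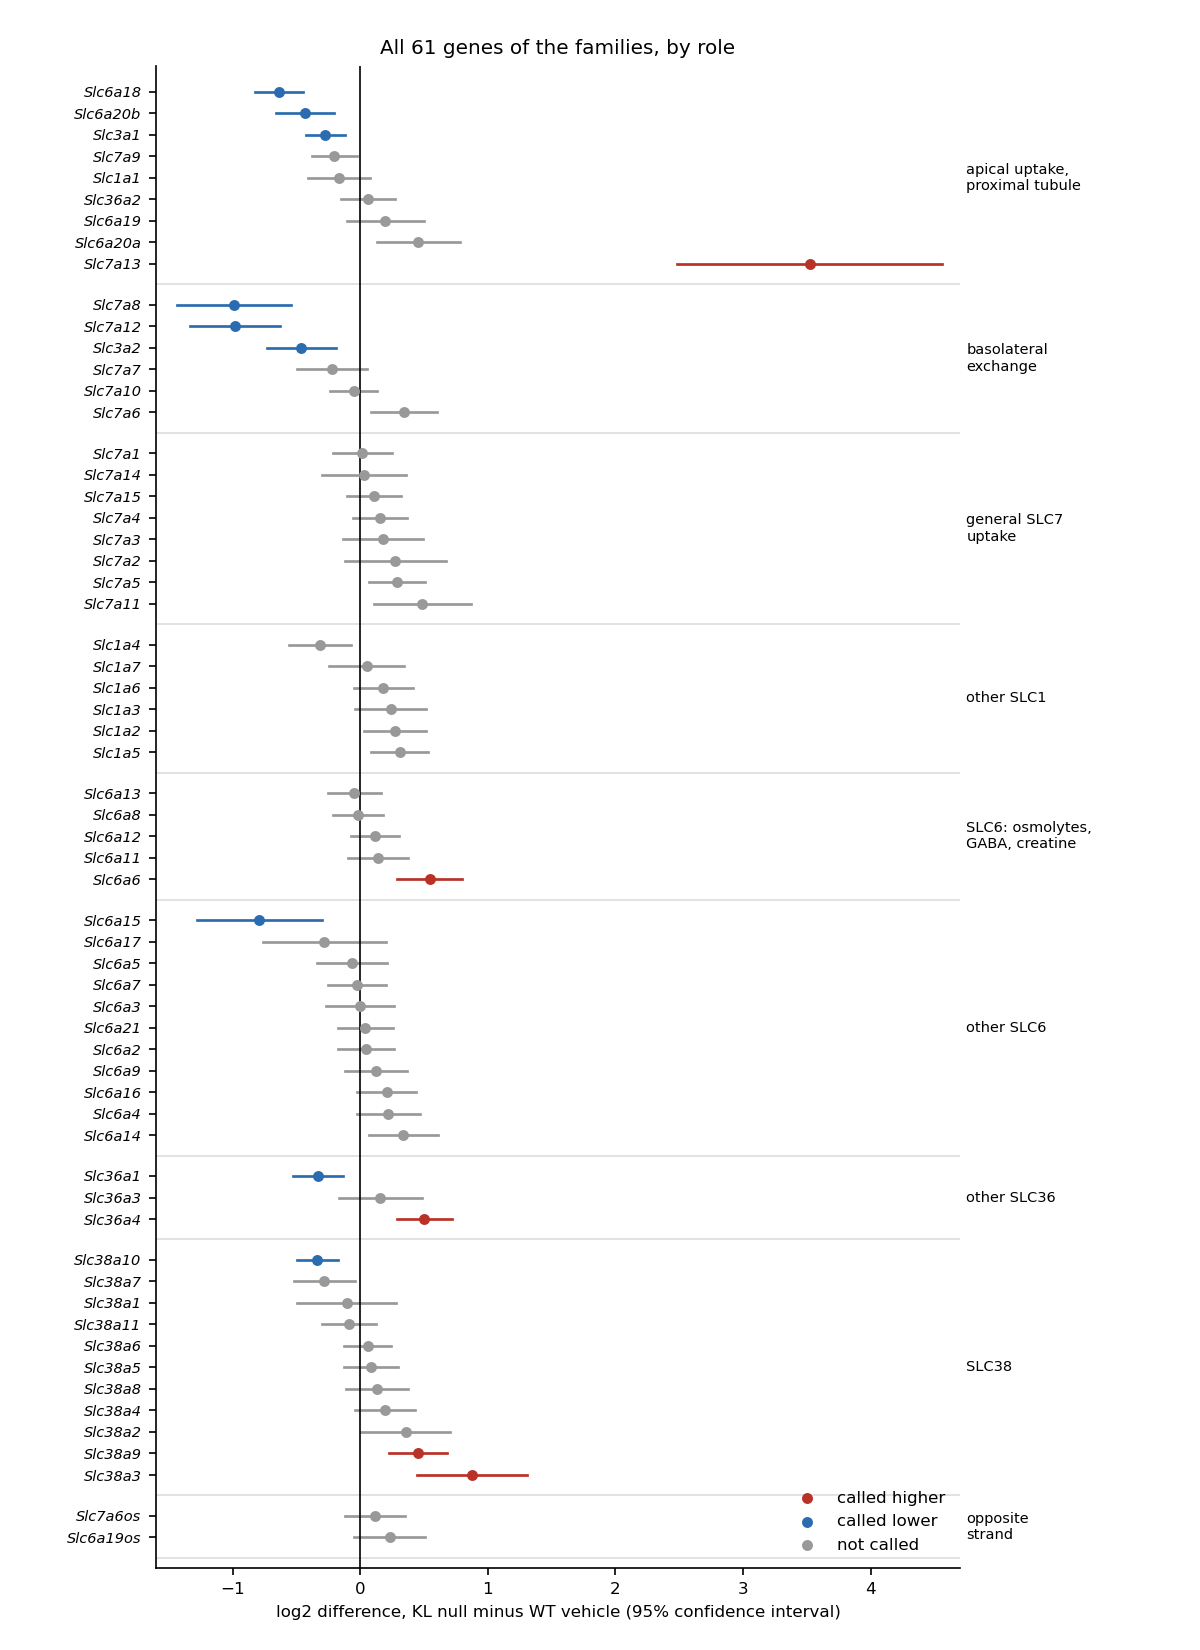
Log2 difference of KL null minus WT vehicle for each of the 61 members, grouped by role, with 95% confidence intervals from limma as lines and called members in colour. Slc7a13 at 3.52 stands far to the right, and the other differences lie between -0.99 and 0.88.

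In the 8 members for cationic, large neutral and cystine uptake of cells in general, 0 were called with limma, and the median difference was 0.17. Their median signal was 5.50, and all genes below the median gene mean had a median difference of 0.05. An unadjusted p below 0.05 was reached by 2 of the 8, against 21.3% of all genes. Slc7a5, the large neutral exchanger LAT1, read 6.21, 6.44, 6.35 and 6.46 in vehicle, 6.60, 6.60, 6.25 and 6.35 after FGF23, and 6.50, 6.80, 6.58 and 6.74 in KL null kidney. Vehicle was just below every KL null array, but the difference of 0.29 was not called (adjusted p = 0.103, and 0.0321 with array quality weights). Slc7a11, the cystine-glutamate exchanger xCT, read 4.17, 4.05, 3.90 and 3.84 in vehicle, 4.47, 4.24, 3.96 and 4.05 after FGF23, and 3.90, 4.99, 4.49 and 4.53 in KL null kidney. KL null replicate 1 was inside the vehicle range and the other 3 were above it, with a difference of 0.49 (adjusted p = 0.112, 0.00919 without KL null replicate 1 and 0.0216 with array quality weights).

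Of the other 6 SLC1 members 0 were called with limma, and the median difference was 0.21 at a median signal of 6.21. An unadjusted p below 0.05 was reached by 3 of the 6, against 21.3% of all genes. Slc1a5, the neutral amino acid and glutamine exchanger ASCT2, read 8.65, 8.63, 8.71 and 8.79 in vehicle, 8.87, 8.95, 8.80 and 8.84 after FGF23, and 8.71, 9.07, 8.95 and 9.29 in KL null kidney. It was above vehicle on 3 of 4 KL null arrays, and the difference of 0.31 was not called (adjusted p = 0.0858). It passed without KL null replicate 1 (0.0130), with further quantile normalization (0.0368), array spread as a covariate (0.0496) or array quality weights (0.0182), and over genes at or above the median (0.0453). Slc1a4, which exchanges alanine, serine and cysteine, read 7.05, 6.94, 7.16 and 6.72 in vehicle, 6.78, 6.89, 6.98 and 7.22 after FGF23, and 6.57, 6.75, 6.50 and 6.79 in KL null kidney. The groups overlapped at vehicle replicate 4, and the difference of -0.32 was not called (adjusted p = 0.113, 0.0498 without that array and 0.0342 with array quality weights).

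Among the 5 osmolyte, GABA and creatine carriers of SLC6, 1 was called. Slc6a6, which takes up taurine, read 10.40, 10.41, 10.52 and 10.36 in vehicle, 10.31, 10.34, 10.37 and 10.57 after FGF23, and 10.57, 11.21, 10.96 and 11.13 in KL null kidney. KL null replicate 1 was only just above vehicle and the other 3 were clearly higher, with a difference of 0.55 (0.29 to 0.80, adjusted p = 0.0112). The betaine carrier Slc6a12 differed by 0.12 (adjusted p = 0.504), the GABA carrier Slc6a13 by -0.04 (adjusted p = 0.862) and the creatine carrier Slc6a8 by -0.02 (adjusted p = 0.949).

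Of the 11 remaining SLC6 carriers, for glycine, proline, neutral amino acids and monoamines, 0 rose and 1 fell. Slc6a15, a carrier of branched-chain amino acids and proline best known from neurons, read 9.59, 9.13, 9.46 and 9.14 in vehicle, 8.43, 8.59, 9.70 and 8.67 after FGF23, and 9.0, 8.35, 8.52 and 8.29 in KL null kidney. The KL null arrays were below vehicle, and 3 of the 4 FGF23 arrays were within the KL null range. The difference was -0.79 (-1.28 to -0.30, adjusted p = 0.0485). This call was lost without FGF23 replicate 2 (0.0538) or 4 (0.0583), without any 1 of the 4 WT vehicle arrays (0.0579 to 0.142), without KL null replicate 2, 3 or 4 (0.111 to 0.125), and with further quantile normalization (0.0595), array spread as a covariate (0.0662) or trended and robust moderation (0.107).

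Of the 3 other SLC36 members, 1 rose and 1 fell. Slc36a4, a proton-independent carrier of proline and tryptophan, read 7.34, 7.25, 7.36 and 7.28 in vehicle, 7.11, 7.12, 7.17 and 7.27 after FGF23, and 7.47, 7.88, 7.91 and 7.98 in KL null kidney. All KL null arrays were above both wild-type groups, replicate 1 by the least, and the difference was 0.50 (0.29 to 0.72, adjusted p = 0.00724). Slc36a1, a proton-coupled carrier of small neutral amino acids found on lysosomes, read 8.87, 8.67, 9.05 and 8.75 in vehicle, 8.73, 8.80, 8.60 and 8.75 after FGF23, and 8.50, 8.57, 8.38 and 8.58 in KL null kidney. Its KL null arrays were just below both wild-type groups, and the difference was -0.33 (adjusted p = 0.0410). The Slc36a1 call was lost without FGF23 replicate 4 (0.0544), WT vehicle replicate 1 (0.109) or 3 (0.138), or any 1 of the 4 KL null arrays (0.0559 to 0.132), and with further quantile normalization (0.0617) or only the 2 groups compared (0.0646).

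Of the 11 SLC38 members, 2 rose and 1 fell. Slc38a3, the basolateral glutamine carrier whose cargo feeds renal ammonia formation, read 9.10, 9.37, 9.39 and 9.83 in vehicle, 9.98, 9.72, 9.09 and 9.31 after FGF23, and 10.03, 10.67, 9.99 and 10.51 in KL null kidney. The KL null arrays were above all wild-type arrays, although FGF23 replicate 1 came within 0.01 of the lowest, and the difference was 0.88 (0.45 to 1.31, adjusted p = 0.0151). Slc38a9, a lysosomal arginine sensor upstream of mTORC1, read 7.74, 7.53, 7.60 and 7.94 in vehicle, 7.46, 7.34, 7.61 and 7.36 after FGF23, and 7.96, 8.29, 8.24 and 8.13 in KL null kidney. The KL null arrays lay above all others, and the difference was 0.45 (0.23 to 0.68, adjusted p = 0.0160), with 0.34 on the second probe set of Slc38a9. Slc38a10 read 8.92, 8.77, 8.93 and 8.73 in vehicle, 8.82, 8.78, 8.79 and 8.91 after FGF23, and 8.48, 8.55, 8.52 and 8.46 in KL null kidney. Its KL null arrays were below all others within a span of 0.09, and the difference was -0.34 (adjusted p = 0.0137).

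The glutamine carrier Slc38a2, which rises in cells short of amino acids, read 9.61, 9.59, 9.56 and 9.82 in vehicle, 10.18, 9.69, 9.98 and 9.72 after FGF23, and 9.63, 9.96, 9.86 and 10.56 in KL null kidney. The groups overlapped, and its difference of 0.36 was not called (adjusted p = 0.220). Slc38a1 differed by -0.10 (adjusted p = 0.821), with -0.38 on its second probe set, whose mean was 4.25 against 5.87. The 3 SLC38 calls were each lost in some fits that left out 1 array. Slc38a3 was not called without WT vehicle replicate 1 (0.0578) or KL null replicate 2 (0.0540), Slc38a9 without WT vehicle replicate 3 (0.0611) or KL null replicate 2 (0.0546) or 3 (0.0578), and Slc38a10 without WT vehicle replicate 1 (0.0556) or 3 (0.0549).

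Other genes of amino acid handling were read from lists that were not limited by signal level. Among the 19938 measured genes, 8.01% were called, 3.58% as higher and 4.44% as lower. Among the 9969 genes at or above the median gene mean, 12.2% were called, 425 higher and 794 lower. Each list below also holds genes under that median, such as Slc15a1 (mean 3.84), Tdo2 (3.45) and Fgf21 (4.95). Of 27 measured transporters, peptidases and partners outside the families, 1 was higher and 3 were lower, with a median difference of -0.01. Slc43a3, a nucleobase carrier of a family with amino acid carriers, was higher by 0.78 (adjusted p = 0.00925). The brush border peptidases Anpep at -0.61 and Dpep1 at -0.58 and the peptide carrier Slc15a2 at -0.59 were lower. Cltrn, the protein that brings Slc6a19 to the brush border, differed by -0.31 and was not called (adjusted p = 0.0845). Of 58 measured enzymes of renal amino acid metabolism, 2 were higher and 12 lower, with a median of -0.18. Aadat, which transaminates kynurenine and aminoadipate, fell by 1.77, the aminoacylase Acy3 fell by 1.46, and Gatm, which makes the precursor of creatine, fell by 0.99. Hpd of tyrosine breakdown and Cdo1, which oxidises cysteine on the way to taurine, were higher by 0.80 and 0.51. Of 23 measured genes of the ATF4 amino acid response, 0 were called with limma, with a median of 0.09. An unadjusted p below 0.05 was reached by 2 of the 23, against 21.3% of all genes. After FGF23, 1 of these 23 was called, the stress-induced factor Ddit3 (0.58 higher, adjusted p = 0.0470).

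Several markers of the proximal tubule, where many of these carriers act, fell as well. To compare with the marker lists here, 3.58% of the 19938 genes rose and 4.44% fell. Lists of 2 or 3 markers are too short to be judged against these shares. Of 9 proximal tubule markers, 0 rose and 5 fell (Slc22a8, Lrp2, Miox, Cubn and Slc34a1), with a median of -0.39. Not called were Aqp1 at 0.05, Slc5a12 at 0.04, Slc5a2 at -0.145 and Slc22a6 at -0.40. The mean level of the 9 was 11.88 to 12.10 in vehicle and 11.60 to 11.78 in KL null kidney. Of 5 markers of the straight proximal tubule, where Slc7a13 is found, Slc5a10, Slc22a13, Atp11a and Slc5a1 fell by 1.46, 1.03, 0.94 and 0.47, and Slc16a9 rose by 0.65. The mean level of these 5 was 10.36 to 10.39 in vehicle and 9.57 to 9.79 in KL null kidney. Of 6 macrophage markers, 3 rose and 1 fell, with a mean level of 6.81 to 7.24 in vehicle and 6.88 to 7.75 in KL null kidney. Of 3 liver markers 2 fell, with a mean level of 8.24 to 8.74 in vehicle and 7.22 to 8.21 in KL null kidney. Of 3 thick ascending limb markers 1 rose (10.98 to 11.03 and 11.14 to 11.29), and of 2 distal convoluted tubule markers 1 fell (9.69 to 10.78 and 9.06 to 10.15). For collecting duct, podocyte, endothelium, lymphocyte, erythroid, adrenal, adipocyte and neural markers, 0 of 29 were called with limma. An unadjusted p below 0.05 was reached by 7 of the 29, against 21.3% of all genes. All 4 endothelium markers and all 5 of collecting duct had negative differences, with 3 and 1 at an unadjusted p below 0.05. Mean levels for endothelium were 9.10 to 9.175 in vehicle and 8.79 to 9.005 in KL null kidney, with no overlap. Those for collecting duct were 9.38 to 9.58 and 9.29 to 9.37, also with no overlap. In the other lists of this group the mean levels overlapped. The part of these shifts in the transporter differences was not tested.

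**Figure D3:**
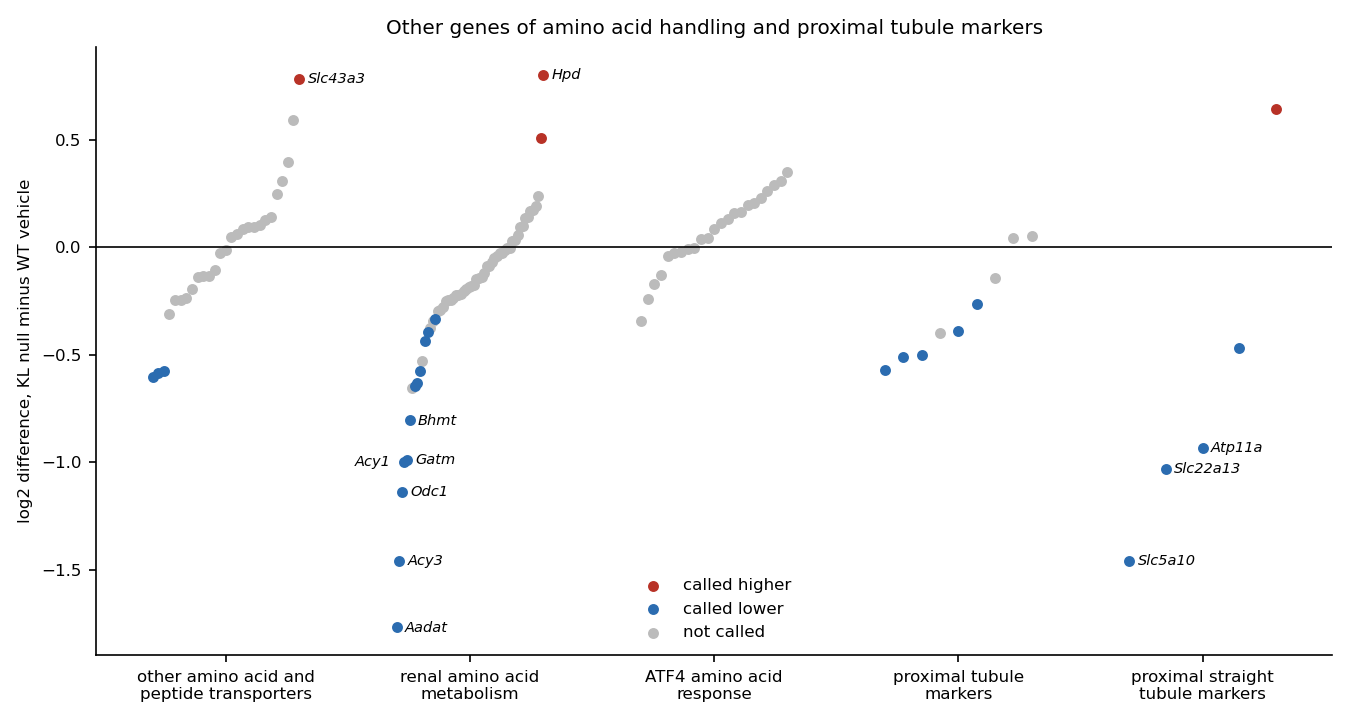
Log2 difference of KL null minus WT vehicle for single genes of 5 lists, ordered by value within each list, with called genes in colour. Among 58 enzymes of renal amino acid metabolism 12 were called lower and 2 higher, and among 23 genes of the ATF4 response 0 were called.

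One hour after FGF23, 0 of the 61 members were called against vehicle with limma, where 0.0853% of all genes were, 0.0802% higher and 0.00502% lower. An unadjusted p below 0.05 was reached by 10, or 16.4%, against 15.4% of all genes. The 4 FGF23 arrays did not overlap vehicle for 3 members, or 4.92% against 7.01% of all genes, with Slc1a5 above (4.09% of all genes) and Slc6a20b and Slc6a4 below (2.92%). FGF23 and KL null were compared with the same vehicle arrays. The 5 members of smallest p were the GABA carrier Slc6a11 (0.41, adjusted p = 0.234), the glutamine carrier Slc38a5 (0.31, 0.252), Slc6a20b (-0.33, 0.252), Slc6a21 (0.30, 0.253) and Slc7a12 (-0.43, 0.276). The intervals around the FGF23 differences bound what these arrays can show, from -0.97 for the lower end of Slc6a15 to 1.19 for the upper end of Slc7a13.

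The Slc7a12 difference after FGF23 came from replicates 1 and 2, at 11.34 and 11.37, while replicates 3 and 4 at 12.03 and 12.15 were near vehicle. On the same 2 arrays the mean of the 3 female-biased genes was 10.22 and 10.56, against 11.29 and 11.26 on replicates 3 and 4. Of the 3, Cyp4a14 was not lower there, at 10.94 and 10.72 against 10.79 and 10.71. These 2 arrays also had the smallest standard deviations, and the part of either in the Slc7a12 values was not tested.

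The sign of the members' FGF23 differences followed signal level, as in all genes. Of the 27 members below the median gene mean, 25 were above 0, with a median difference of 0.16, where 7910 of 9969 such genes were above 0 with a median of 0.12. Of the 34 members at or above it, 12 were above 0, with a median of -0.08, where all such genes had a median of -0.04. With the spread of each array as a covariate, 13 of the 27 dim members were above 0, and after further quantile normalization 19 were. In KL null kidney 21 of the 27 were above 0, where 6542 of 9969 such genes were. After further quantile normalization 16 of the 27 were above 0 in KL null kidney.

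**Figure D4:**
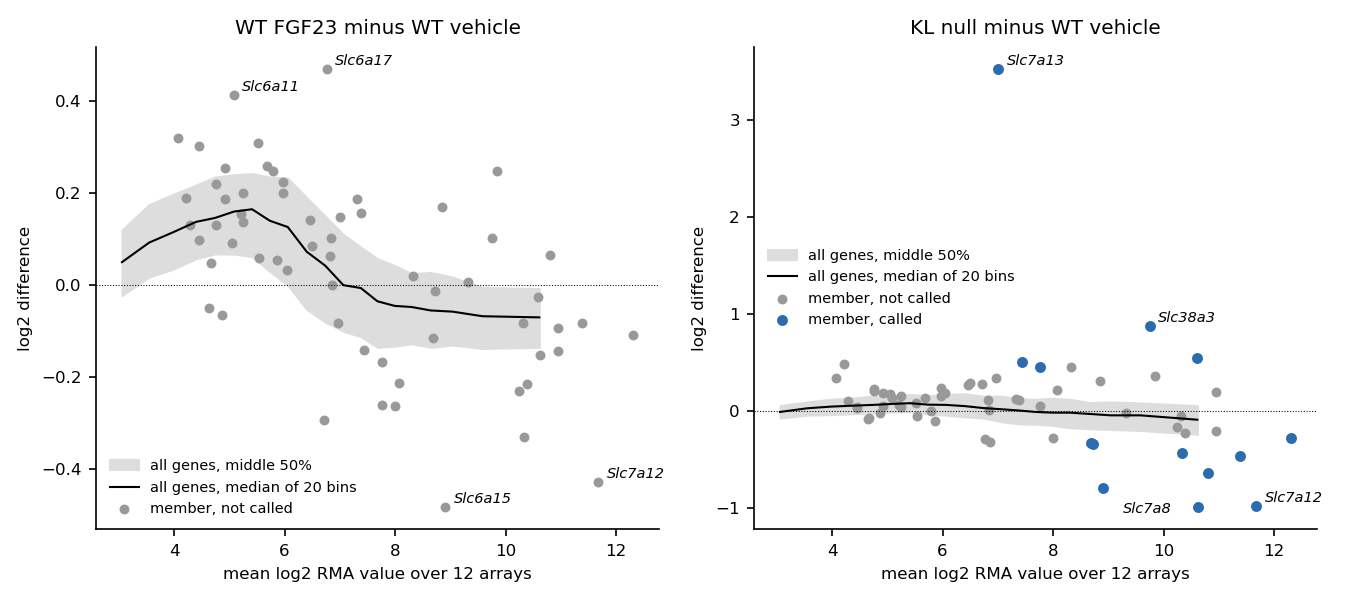
Log2 difference against mean log2 RMA value over 12 arrays, with WT FGF23 minus vehicle on the left and KL null minus vehicle on the right, where points are members and the line and band are the median and the middle 50% of all genes in 20 bins. After FGF23, 25 of 27 members below the median gene mean lie above 0 as the line does, and in KL null Slc7a13 lies far above the others, at a mean of 7.01 that includes its high KL null arrays.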

How the data were processed

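Kidney RNA was measured on 12 arrays. The deposited values are log2 expression per probe set, and the submitters' processing notes name Partek 6.2 and RMA as the authors' tools. The background and probe-level settings are not given in the sources used here. RMA compresses the differences of dim probe sets. Of 28853 probe sets, 21789 had 1 gene symbol in the platform annotation, 1621 had several and 5443 had none, and genes were named from the first kind. Each of 19938 genes was represented by its probe set of highest mean. The test was limma's two-sided moderated one (lmFit and eBayes, version 3.58.1, R 4.3.3), in 1 fit of 3 group means over 12 arrays with 9 residual degrees of freedom. P-values were adjusted by Benjamini-Hochberg over 19938 genes, and genes below 0.05 were called. The fit was tested on simulated data. Other choices were tried as 22 alternatives, 12 of which leave out 1 array. Python 3.11.15, pandas 2.3.3 and matplotlib 3.10.9 were used.

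Members called in a comparison and 25 members with textbook roles in the kidney were named, with the 5 of smallest p where none was called. The members, roles and lists were chosen with earlier results of these data known. The replicate numbers are not stated to pair samples. Precision is limited by 4 arrays per group. The HBEGF arm in the protocol was not analysed here.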

Additional observations from a re-analysis of the deposited data

Results flagged for a closer look

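Of 96 groups of 4 arrays checked over 32 named members, 3 held a single array far from the other 3, where chance gives about 1 in 20 groups. All 3 were KL null groups of apical carriers that were not called. Slc1a1 was 10.41 on KL null replicate 2 against 10.12 to 10.16 on the others, inside its vehicle range. Slc6a20a was 8.23 on KL null replicate 1 against 8.73 to 8.77, and its adjusted p was 0.0821 with that array and 0.0197 without it. Slc7a9 was 10.66 on KL null replicate 4 against 10.89 to 10.92.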

How the results depend on the processing

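In KL null kidney 14 members were called, 5 higher and 9 lower. Leaving out 1 array gave 7 to 16 calls, and the other 10 alternatives gave 11 to 21. The split was 6 higher and 6 lower with arrays quantile-normalized again, 7 and 8 with each array's spread as covariate, 11 and 10 with array quality weights, where 2852 of 19938 genes were called against 1598, and 7 and 9 over genes at or above the median, where 1861 of 9969 were. Slc7a13 is at or above that median only through its KL null arrays. Of the 14 called members, 6 passed in all 22 alternatives (Slc6a18, Slc7a13, Slc7a12, Slc7a8, Slc6a6 and Slc36a4), 8 lost the call in at least 1, and 0 changed sign. Of the named members that were not called, 5 passed in at least 1. After FGF23, 0 members were called in each of the 22 alternatives, with 4 to 16 at an unadjusted p below 0.05. Correlations of same-numbered deviations with vehicle were -0.22 to 0.19 for FGF23 and -0.14 to 0.17 for KL null. Replicate 2 of FGF23 and of KL null correlated best with vehicle replicate 2, and no other replicate did so with its own number. With 4 arrays per group this cannot exclude that the numbers pair the samples. With the replicate block, 11 members were called in KL null, all 11 among the 14, and 0 after FGF23. Slc3a2 (adjusted p = 0.0509), Slc3a1 (0.0541) and Slc36a1 (0.0693) were not called with the replicate block. The cause of lost calls was not tested. No probe set could be set against its background, so a dim member's difference is limited by unknown background.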
